A study of Mus musculus with 7 samples.

Results

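The Oas1 cluster is a run of tandem gene copies on mouse chromosome 5, and 6 of its genes, Oas1a, Oas1c, Oas1d, Oas1e, Oas1g and Oas1h, are described here across pools of ovulated oocytes. They were taken by name, and all 6 were among the 18951 gene symbols measured. RNA was sequenced from 4 Nlrp2-null and 3 WT pools, from C57BL/6 females of 4 weeks, with no drug or hormone given in the labels. Each pool held about 150 oocytes of 3 to 4 mice of a single genotype, collected from the oviduct and freed of cumulus cells with hyaluronidase. The labels do not say which part of Nlrp2, a maternal effect gene, the null allele lacks or whether the loss is limited to oocytes, and a pool averages over its animals. Nlrp2 itself came to 1.96 to 107 normalized counts in null pools and 15527 to 20130 in WT pools, so each pool carried the Nlrp2 level its label calls for.

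Enzymes of the 2'-5' oligoadenylate synthetase (OAS) family detect double-stranded RNA and answer it by making 2'-5' linked oligoadenylates, called 2-5A, which act as a signal inside the cell. Most OAS genes are raised by interferon in many cell types. In the mouse the OAS1 gene has been copied many times, and the copies differ in use: Oas1a and Oas1g encode active synthetases, whereas Oas1c, Oas1d and Oas1e are known for RNA that is largely restricted to the ovary. OAS1D of the mouse egg lacks synthetase activity and has been reported to dampen that of OAS1A. Oas1c, Oas1d, Oas1e and Oas1h are called the oocyte forms below, and Oas1a and Oas1g the immune forms. Oas1h was placed with the oocyte forms for this work, and its role in the egg is not stated here.

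The sequences of the genes show which of them reads can tell apart. Their first 60 coding bases, from GENCODE M21 transcripts on GRCm38, are given 5' to 3' for the oocyte forms and then the immune forms. Capitals mark bases that differ from Oas1a at the same place, counted without gaps.
Oas1d: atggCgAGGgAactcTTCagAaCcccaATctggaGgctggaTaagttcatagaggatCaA
Oas1e: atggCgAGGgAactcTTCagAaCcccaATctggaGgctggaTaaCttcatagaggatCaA
Oas1c: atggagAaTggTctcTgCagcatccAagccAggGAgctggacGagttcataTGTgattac
Oas1h: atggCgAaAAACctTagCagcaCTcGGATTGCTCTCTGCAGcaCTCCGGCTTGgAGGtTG
Oas1g: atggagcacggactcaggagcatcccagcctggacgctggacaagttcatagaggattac
Oas1a: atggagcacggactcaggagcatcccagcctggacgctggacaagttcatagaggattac
Oas1g did not differ from Oas1a in this stretch (0 bases), Oas1c, Oas1d and Oas1e differed at 13, 16 and 17 bases, and Oas1h, compared without gaps, at 41. Over aligned coding sequence the immune forms were 96.7% identical to each other. The 6 pairs of oocyte forms were 71.6% to 84.8% identical, the most alike being Oas1d with Oas1e. An oocyte and an immune form were 69.1% to 73.4% identical. Of all 50-base windows of the transcript, 57.6% in Oas1a and 54.7% in Oas1g also occurred in a transcript of another gene. That share was 16.3% in Oas1c, 11.5% in Oas1e, 6.24% in Oas1d and 0.48% in Oas1h. How the authors' counting treated reads that match several genes was not given in the sources used here, so the levels of Oas1a and Oas1g are uncertain, while those of the oocyte forms rest mostly on windows of their own.

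The promoters are shown because OAS genes are known for control by interferon. Promoter sequences from RefSeq (GRCm38.p6) were on hand for 4 of the 6 genes. The 120 bases before the start are printed 5' to 3' on the gene's strand, at chr5:120907526-120907645 (minus) for Oas1a, chr5:120887614-120887733 (minus) for Oas1g, chr5:120812515-120812634 (minus) for Oas1c and chr5:120861302-120861421 (plus) for Oas1h. Capitals mark matches to GAAA, any 2 bases and GAAA again, the core of the interferon-stimulated response element, on either strand.
Oas1a: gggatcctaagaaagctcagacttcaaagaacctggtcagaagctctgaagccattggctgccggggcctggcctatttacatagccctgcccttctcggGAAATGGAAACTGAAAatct
Oas1g: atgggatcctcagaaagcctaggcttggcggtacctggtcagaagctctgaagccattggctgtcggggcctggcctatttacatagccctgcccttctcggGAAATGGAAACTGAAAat
Oas1c: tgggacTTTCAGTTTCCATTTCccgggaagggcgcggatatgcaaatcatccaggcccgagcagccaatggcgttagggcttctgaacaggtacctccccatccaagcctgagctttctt
Oas1h: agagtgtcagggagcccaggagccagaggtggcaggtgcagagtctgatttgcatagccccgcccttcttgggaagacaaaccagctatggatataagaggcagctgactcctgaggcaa
In both immune forms 2 overlapping matches lay within 20 bases of the start, on the gene's own strand. Oas1c also held 2 overlapping matches, 99 to 114 bases before its start and on the opposite strand. The Oas1c stretch fills the 120 bases between the starts of Oas1c and Oas1b, which are read in opposite directions, so its matches are on the strand from which Oas1b is read. Oas1h had no match in the 250 bases searched and instead held 2 copies of the E-box CANNTG. On either strand, overlapping matches allowed, the response element letters occurred in 3.46% and CANNTG in 69.3% of 27025 genes over the same window. A match of letters is a description and not a site of binding.

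The oocyte forms were abundant in the egg, and the immune forms were scarce in every pool. Normalized counts, which are reads scaled by the authors to a common depth, were 85958, 109614, 100786 and 92702 for Oas1d in null pools 1 to 4, against 71553, 86486 and 107111 in WT pools 1 to 3. By their means over the 7 pools Oas1d ranked 82, Oas1c 192, Oas1e 725 and Oas1h 1675 among 18951 genes. Oas1a had 23.8, 39.9, 65.7 and 54.4 normalized counts in null pools, against 27.4, 37.1 and 45.3 in WT pools. Its rank was 12744, and no pool brought it near any oocyte form.

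**Figure D1:**
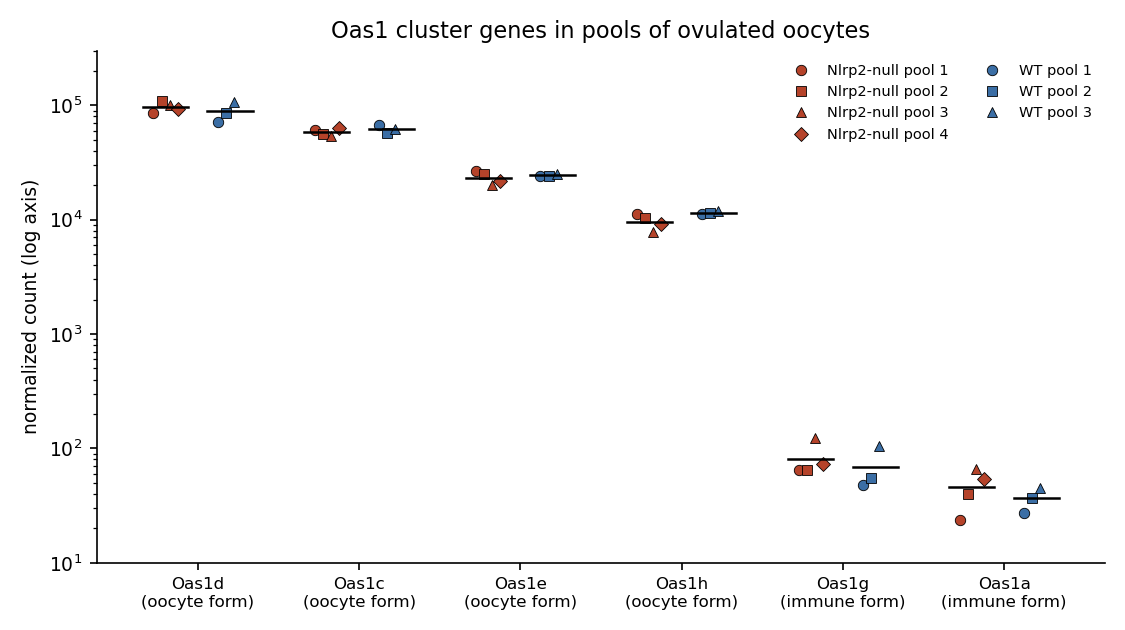
Normalized counts (log axis) of the 6 genes in each Nlrp2-null and WT pool, with a bar at each group's mean. The 4 oocyte forms lie between 7741 and 109614 in every pool and the immune forms between 23.8 and 124.

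Divided by exon length, so that genes can be compared, the levels kept a fixed order. Oas1d stood at 48127 ± 5059 normalized counts per kilobase in null pools (SD, n = 4) and 43732 ± 8835 in WT pools (SD, n = 3). Oas1c stood at 24437 ± 1737 in null pools and 25743 ± 2175 in WT pools. Oas1e stood at 12901 ± 1631 in null pools and 13592 ± 371 in WT pools. Each of these was above the next in all 7 pools, and their ranges did not overlap within either group. Oas1h followed at 5638 ± 881 per kilobase in null pools and 6734 ± 185 in WT pools, again below Oas1e in every pool. Per kilobase all 4 exceeded 96.8% or more of the 14508 genes ranked.

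The 2 immune forms lay far below on the same scale. Oas1g was at 34.9 ± 12.1 normalized counts per kilobase in null pools and 29.5 ± 13.3 in WT pools. Oas1a was at 24.4 ± 9.63 in null pools and 19.4 ± 4.75 in WT pools. Oas1g was above Oas1a in each of the 7 pools, but their ranges overlapped in both groups. Oas1a rested on 22 to 67 reads per pool and Oas1g on 45 to 127. In null 1 the 22 reads of Oas1a have an exact 95% Poisson interval of 13.8 to 33.3 reads, which covers counting error only. In contrast, every oocyte form had at least 7891 reads in every pool.

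Summed per kilobase, the oocyte forms outweighed the immune forms 2209-, 2002-, 1003- and 1487-fold in null pools 1 to 4, against 2393-, 2001- and 1451-fold in WT pools. Null 3 had the smallest ratio of the 7 pools and WT 1 the largest, and the groups overlapped. On the log2 scale the ratio averaged 10.6 ± 0.51 in null pools (SD, n = 4) and 10.9 ± 0.37 in WT pools (SD, n = 3), with a difference of -0.25 that is smaller than either SD. Leaving out null 3 brought the difference to -0.03 and leaving out WT 1 to -0.09. The number of unshared 50-base windows was also used in place of exon length, a choice made after seeing the data. The log2 ratio was then 9.56 in null and 9.82 in WT pools. Only the divisor changed, and reads from shared sequence stayed in the counts, so the level on unshared sequence was not measured.

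**Figure D2:**
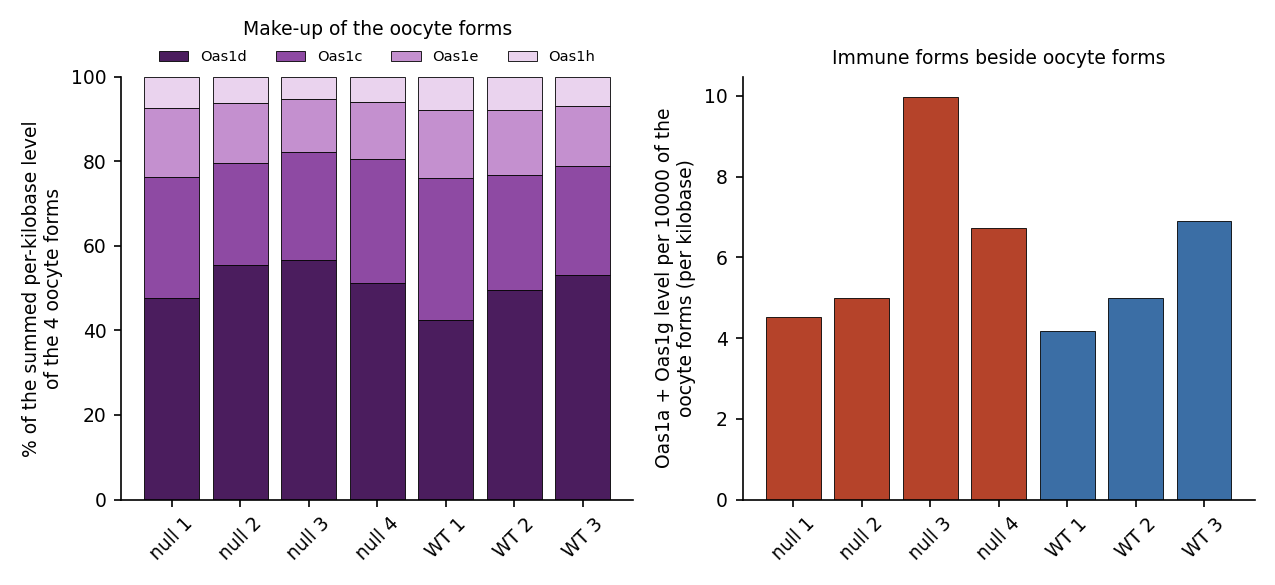
Left, the percentage of the summed per-kilobase level of the oocyte forms that each contributed in each pool. Right, the summed per-kilobase level of Oas1a and Oas1g for every 10000 of the oocyte forms, which runs from 4.53 to 9.97 in null pools and from 4.18 to 6.89 in WT pools.

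Of the shares that the oocyte forms took of their sum, that of Oas1d, the largest, had the widest range over pools in percentage points. Oas1d supplied 47.6%, 55.6%, 56.7% and 51.3% of their summed per-kilobase level in null pools, against 42.5%, 49.5% and 53.2% in WT pools. WT 1 had the lowest share and null 3 the highest, with the groups overlapping. The normalized counts of Oas1d had a coefficient of variation of 14.4% over the 7 pools, whereas the 140 genes within 1.5-fold of its level had a median of 7.80%, and 96.4% of them varied less. Oas1c varied by 7.56%, beside a median of 8.21% for genes at its own level. Oas1h varied by 14.1%, more than 86.7% of the genes at its level, and Oas1e by 9.32%, more than 62.0% of them.

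Genes of the cluster lie side by side at very different levels. In chromosome order Oas1e and Oas1c come first, then Oas1b, Oas1f, Oas1h, Oas1g, Oas1a and Oas1d. Oas1b, which confers resistance to flaviviruses in wild mice and is a disabled copy in C57BL/6, begins 120 bases from Oas1c. It held 182 ± 68.6 normalized counts per kilobase in null pools (SD, n = 4) and 182 ± 42.5 in WT pools (SD, n = 3), and Oas1c was 89.3 to 242 times as high in null pools and 129 to 175 times in WT pools. Oas1f, whose coding sequence is 84.2% identical to that of Oas1c, was at 251 ± 71.5 per kilobase in null and 265 ± 48.4 in WT pools. Oas1c was 75.8 to 137 times as high as Oas1f in null pools and 73.9 to 123 times in WT pools. Oas1d borders Oas1a, and its level per kilobase was 1430 to 3363 times that of Oas1a in null pools and 2176 to 2437 times in WT pools. Beyond Oas1d lies Rph3a, which encodes the vesicle protein rabphilin, at 4122 ± 220 per kilobase in null and 4423 ± 278 in WT pools.

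**Figure D3:**
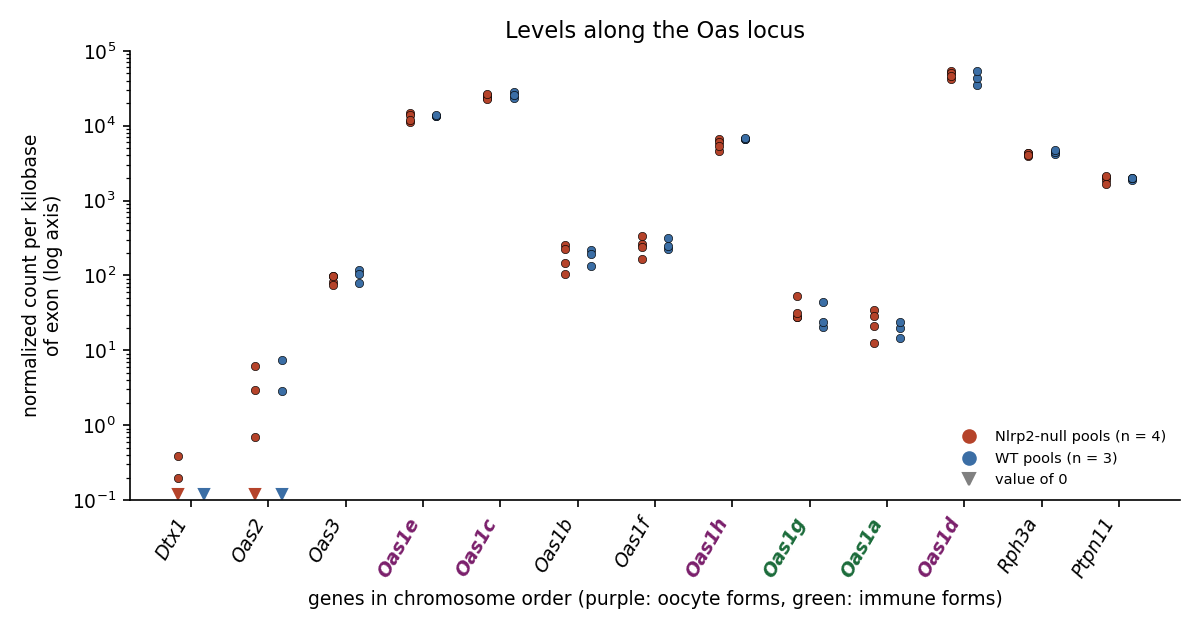
Normalized counts per kilobase of exon (log axis) for protein-coding genes and Oas1b in chromosome order, 1 point per pool, with triangles for values of 0. The oocyte forms stand at 4546 or more in every pool, while Oas1b, Oas1f, Oas1g and Oas1a between them stay under 337.

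Loss of Nlrp2 was not accompanied by a called change in any of the 6 genes. The test was limma on log2(normalized count + 1) across 15071 genes, Nlrp2-null minus WT, with calls at a Benjamini-Hochberg adjusted p under 0.05. Of the 6 genes 0 were called, where 0.0664% of all genes were. edgeR and DESeq2 on recovered reads also called 0 of the 6, where they called 0.0464% and 1.29% of all genes. At an unadjusted p under 0.05 limma counted 1 of the 6, Oas1h, where 10.2% of all genes were so counted. In such bulk samples fewer cells of a type and less RNA per cell cannot be told apart. The median log2 fold change of the 6 was 0.04, beside 0.01 over all genes tested.

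Oas1d had a log2 fold change of 0.15 (SE 0.115, limma adjusted p = 0.691), with 95% limits of -0.09 and 0.40. The value rested on single WT pools, at 0.0092 without WT 1 (limma adjusted p = 0.983) and 0.30 without WT 3 (limma adjusted p = 0.577). Oas1c had -0.07 (SE 0.0834, limma adjusted p = 0.810), with limits of -0.25 and 0.10, and was -0.01 without WT 1 and -0.14 without WT 2. Oas1e had -0.08 (SE 0.0977, limma adjusted p = 0.820), with limits of -0.29 and 0.12. For these 3 genes the limits leave room for folds between 0.817 and 1.32 of the WT level, and the groups overlapped in each. The 4 Oas1c values were 61418, 56573, 54052 and 63045 in null pools, against 67179, 56716 and 61842 in WT pools. The numbers in the library labels fall into a lower and a higher range. Within the lower range (2 null and 2 WT pools) Oas1d differed by 0.30 on the log2 scale, and within the higher range (2 null pools, 1 WT pool) by -0.15, so its sign was not the same in the 2 ranges. Oas1e had 0.09 and -0.28 in these ranges, and Oas1c -0.07 and -0.08.

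For the immune forms the limits were much wider. Oas1a had a log2 fold change of 0.26 (SE 0.735, limma adjusted p = 0.933), with limits of -1.30 and 1.82. Oas1g had 0.27 (SE 0.594, limma adjusted p = 0.910), with limits of -0.99 and 1.53. A 2-fold higher level in null pools lies within the limits of both, and a 2-fold lower level within those of Oas1a, so differences of that size were not detectable at this depth and spread. Within the lower and the higher range of library numbers Oas1a differed by -0.04 and 0.39, and Oas1g by 0.34 and -0.13. Oas1g had 65.0, 64.5, 124 and 73.2 normalized counts in null pools, against 47.4, 55.1 and 105 in WT pools. Null 3 was highest for both immune forms, and WT 3 was the highest WT pool for both. The summed level of 18 leukocyte markers was also highest in null 3, at 5026 normalized counts, with 1964 to 3315 in the other null pools and 1962 to 2865 in WT pools. Lyz2 alone gave 2427 of the sum in null 3, whereas C1qb was lowest there (724) and Cd52 was highest in null 4 (1440). WT 3 had the lowest sum of the 7 pools. Of these markers 2 to 11 were at 0 in null pools and 4 to 9 in WT pools. The defining leukocyte gene Ptprc had 4.34 to 25.1 normalized counts in null and 0.95 to 20.0 in WT pools. The part of such cells in the Oas1a and Oas1g values was not tested.

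**Figure D4:**
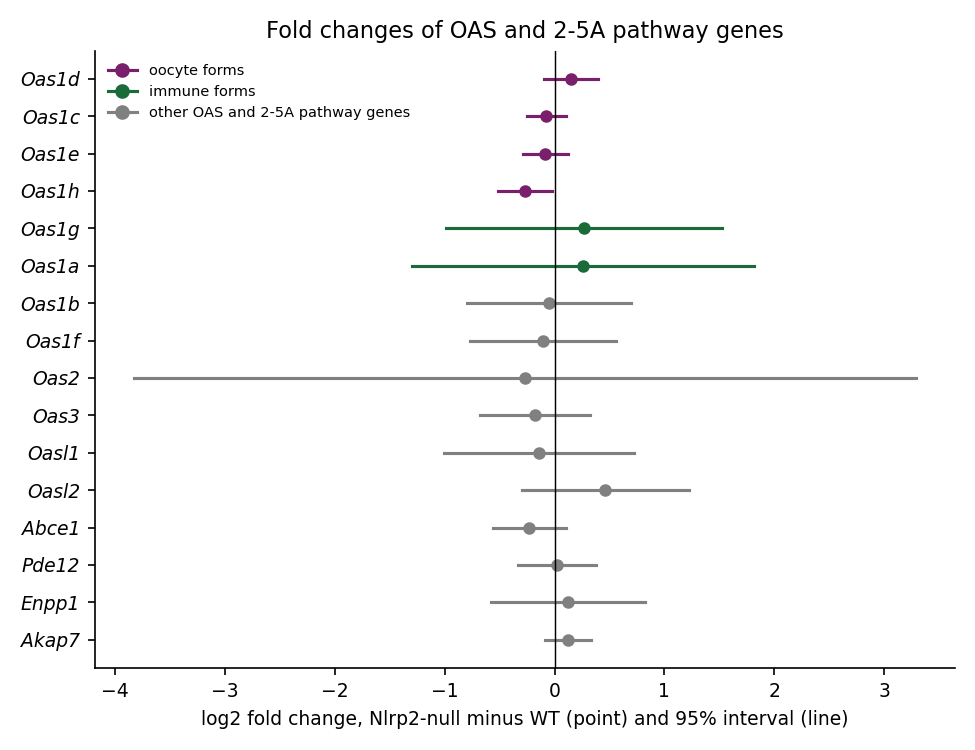
Log2 fold change (Nlrp2-null minus WT) and its 95% interval from limma for the 6 genes, the other OAS genes and genes of the 2-5A pathway. The interval of Oas1h, from -0.52 to -0.02, is the only one of the 16 that leaves out 0, and its adjusted p is 0.447.

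Oas1h was lower in all 4 null pools than in any WT pool, but did not pass the test over all genes. It had 11189, 10342, 7741 and 9134 normalized counts in null pools 1 to 4, against 11205, 11383 and 11818 in WT pools 1 to 3. Null 1 lay just under WT 1, and null 3 was lowest. The group means were 9601 ± 1500 in null pools (SD, n = 4) and 11469 ± 315 in WT pools (SD, n = 3). Set on the log2 scale, null pools differed from WT pools by -0.27 (SE 0.116, limma adjusted p = 0.447), a fold of 0.8295 of the WT level. All null pools lay below all WT pools in 5.16% of the genes tested, so such a split alone is common here.

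The size of the Oas1h difference moved with the pools that entered it. Within the lower range of library numbers it was -0.07 on the log2 scale, and within the higher range, which has a single WT pool, -0.49. Without null 3 and null 4 it was -0.09 (limma adjusted p = 0.838), and without null 3 alone -0.17 (limma adjusted p = 0.654). The mean log2 level of 32 cumulus cell markers was 9.04, 9.26, 9.82 and 10.4 in null pools, against 9.68, 8.52 and 8.81 in WT pools. Null 3 and null 4 thus had both the lowest Oas1h values and the highest cumulus marker means. WT 1 came close to null 3 in marker mean (9.68 beside 9.82), but had 11205 normalized counts of Oas1h against 7741. By library number, null 3 and null 4 are also set apart from null 1 and null 2. Marker mean and number range therefore cannot be separated among null pools. With the cumulus marker mean as a term in the fit, the Oas1h difference was -0.16 (limma adjusted p = 0.750). The part of cumulus cells in the Oas1h difference was not tested. Of 34 cumulus markers 1 to 2 were at 0 in each pool of either group, with summed levels of 139859 to 174068 in null and 131510 to 164458 in WT pools. Rgs2 alone gave 75532 ± 1024 of these sums in null pools (SD, n = 4) and 84017 ± 7154 in WT pools (SD, n = 3). It ranked 112 among 18951 genes, and its highest pool was 1.24 times its lowest. How much Rgs2 RNA came from cumulus cells was not tested, so these sums cannot be read as cumulus RNA alone. Rgs2 was lower in every null pool than in any WT pool, whereas 27 of the 32 tested markers had positive log2 fold changes. Oocyte markers were present throughout: 14 of 14 were above 0 in every pool, with summed levels of 885243 to 1009620 in null and 860401 to 922238 in WT pools.

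**Figure D5:**
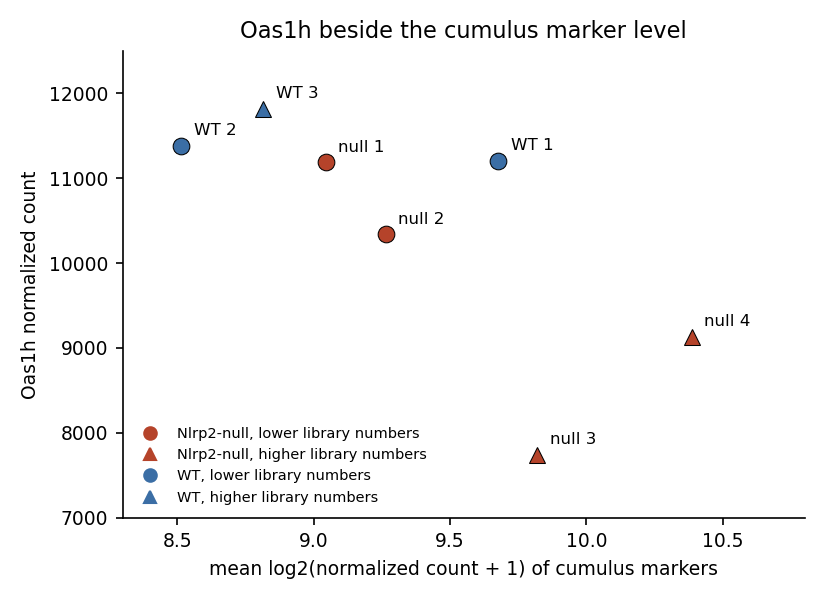
Normalized count of Oas1h in each pool against the mean log2(normalized count + 1) of 32 cumulus markers, with symbols for the range of library numbers. Null 3 (7741) and null 4 (9134) sit at the lower right, and the other 5 pools between 10342 and 11818. The Oas1h axis starts above 0.

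Ratios between the oocyte forms do not depend on how pools were scaled, and 1 of the 6 pairs did not overlap between groups. The level of Oas1e per kilobase was 2.23, 2.27, 2.44 and 2.25 times that of Oas1h in null pools, against 2.03, 2.01 and 2.02 times in WT pools. Every null pool was above every WT pool, in the lower and in the higher range of library numbers. The ratio averaged 2.30 ± 0.0955 in null pools (SD, n = 4) and 2.02 ± 0.00755 in WT pools (SD, n = 3). Set against Oas1e, 8.17% of 13870 tested genes above 0 in every pool had ratios that did not overlap between groups, so the pair is not out of the ordinary by that measure. It was singled out after its values were seen and has no test. The other 5 pairs overlapped, for example Oas1d over Oas1h at 6.47 to 10.97 in null and 5.38 to 7.64 in WT pools.

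Genes whose profile over the 7 pools came closest to each oocyte form were found by the root mean square difference of centred log2 values, among 10527 genes. For Oas1h they were Zc3h7b (0.0395) and Dcaf17 (0.0499), where the median gene stood at 0.295. Rsl24d1 (0.0220) and Zfp160 (0.0319) were nearest to Oas1c, and Tpp2 (0.0331) and Zfp955b (0.0349) to Oas1e. Mtbp (0.0530) and Hnrnpll (0.0727) were nearest to Oas1d. Among the oocyte forms themselves Oas1e and Oas1h were the most alike (0.0998) and Oas1d and Oas1h the least (0.322). Oas1e was the 96th nearest gene to Oas1h, and Oas1h the 309th nearest to Oas1e. Oas1c, Oas1e and Oas1h were closer to each other (0.0998 to 0.177) than the median gene was to any of them. Oas1d was 0.250 from Oas1e, 0.273 from Oas1c and 0.322 from Oas1h, where the median gene stood at 0.311 from Oas1d.

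The other OAS genes were far below the oocyte forms in every pool. Per kilobase Oas1f and Oas1b exceeded 59.2% and 53.5% of the 14508 genes ranked. Oasl2, Oas3 and Oasl1 exceeded 44.2%, 43.3% and 40.2% of them, and Oas2 1.85%. Oas3 and Oas2, which encode larger synthetases with several OAS units, had 628 ± 88.5 and 10.98 ± 12.4 normalized counts in null pools (SD, n = 4), against 715 ± 150 and 15.2 ± 16.6 in WT pools (SD, n = 3). Oas2 was listed at 0 in null 1 and WT 2, which allows up to 3.25 and 2.85 normalized counts there, the value of 3 reads. The OAS-like genes Oasl1 and Oasl2 were at 192 ± 63.3 and 738 ± 363 in null and 209 ± 57.2 and 498 ± 148 in WT pools. None of the 6 other OAS genes, Oas1b and Oas1f included, was called by limma, edgeR or DESeq2, and 0 had an unadjusted limma p under 0.05. Their median log2 fold change was -0.13, with Oasl2 at 0.46 (SE 0.358, limma adjusted p = 0.699).

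Genes for enzymes of the 2-5A pathway were present at unequal levels. Akap7, which encodes a protein whose mouse form can cleave 2-5A, was at 8570 ± 217 in null pools (SD, n = 4) and 7885 ± 800 in WT pools (SD, n = 3). Pde12, which encodes a phosphodiesterase that cleaves 2-5A, was at 1365 ± 154 in null and 1341 ± 94.3 in WT pools. Abce1, which encodes a ribosome recycling factor, was at 1642 ± 77.2 in null and 1940 ± 313 in WT pools. Enpp1, a phosphodiesterase of the cell surface, was at 1840 ± 787 in null and 1667 ± 742 in WT pools. None of these 4 genes was called by any of the 3 tools.

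Double-stranded RNA sensing and interferon genes gave no call either. Of 24 tested sensing genes 0 were called by limma, edgeR or DESeq2, and 1 had higher and 2 had lower values at an unadjusted limma p under 0.05, beside 10.2% of all genes in either direction. Of the 24, 13 had positive log2 fold changes, with a median of 0.03. The most abundant of them was Dicer1, which cuts double-stranded RNA into small RNAs, at 82490 ± 6292 in null pools (SD, n = 4) and 82525 ± 7382 in WT pools (SD, n = 3). Stau1, a binder of double-stranded RNA, was at 36242 ± 3979 in null and 40447 ± 4887 in WT pools. Of 16 interferon signalling genes 0 were called by these tools and 2 had an unadjusted limma p under 0.05, both higher, beside the same 10.2%. Their median was 0.05, with the kinase gene Jak2 at 52301 ± 1858 in null and 53169 ± 5459 in WT pools. Of 27 interferon-stimulated genes 0 were called and 2 had an unadjusted limma p under 0.05, both higher, again beside 10.2% of all genes. Of these 27, 15 had positive log2 fold changes, with a median of 0.29. Samhd1, a dNTP hydrolase that restricts viruses, was the most abundant of these, at 14643 ± 489 in null and 16019 ± 1167 in WT pools. The median of the cumulus markers was 0.52 and that of the leukocyte markers 0.43, and the part of such cells in the interferon-stimulated median was not tested.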

How the data were processed

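RNA of 7 pools of ovulated oocytes was analysed. Per the labels, total RNA was amplified with a NuGEN kit using oligo d(T) and random primers, so reads are not independent molecules. The Poisson interval covers only the error of counting, and limma limits the spread between pools. The deposited signal for each gene is the read count scaled by the authors with DESeq2, per the name of the table. Dividing by the step found in each pool gave whole reads, within 0.01, for 100% of values, and 71073973 to 96330083 reads per pool. Named in the submitters' processing notes are the aligners STAR 2.5.0a and TopHat2 2.0.9, the counters featureCounts 1.5.0-p1 and HTSeq, and HOMER, DESeq and DESeq2 1.22.2, on GRCm38 and mm10. Neither the role of each nor the strand setting was given in the sources used here. Oas1c shares 227 exon bases with Gm43069 on the opposite strand. A table of assembled transcripts was not used here, because none of its identifiers names a gene of the cluster.

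limma 3.58.1 with a variance trend was fitted to log2(normalized count + 1) of 15071 genes with a mean of at least 10, without covariates. That scale understates the change of low genes. edgeR 4.0.16 and DESeq2 1.42.0 on recovered reads were alternatives, and all 3 were tested on simulated data. Lengths are merged exons of GENCODE M21. Coding sequences were aligned with Biopython 1.88. From every list all members were counted, and the most abundant were named. A gene of the 2-5A pathway outside these lists is not reported here. The genes and lists were chosen with earlier results of these data known. The higher range of library numbers holds WT 3, null 3 and null 4, and the lower range the other pools. The labels do not say what these numbers mark. Pools are separate collections of mice per the labels, and no pair within a group was within counting noise (the lowest chi-square was 37.97 per degree of freedom).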

Additional observations from a re-analysis of the deposited data

Results flagged for a closer look

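Oas1g stood out in null 3, with 124 normalized counts, where the other null pools lay between 64.5 and 73.2. The gap between null 3 and the next pool was 0.852 of the range of the null pools, above Dixon's 95% critical value for 4 values. Chance alone gives such a gap in about 1 of 20 groups, and 17 sets of null values were looked at, of which 1 had it. WT 3, at 105, was close to null 3.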

How the results depend on the processing

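None of the 6 genes was called under any of the 21 alternative fits, although a filter at a mean of 100 left Oas1a and Oas1g untested. Oas1c, Oas1d and Oas1h kept their sign in all of them, Oas1h between -0.35 and -0.09 with adjusted p values from 0.269 to 0.838, Oas1d between 0.0092 and 0.30, and Oas1c between -0.14 and -0.01. Without null 3 and null 4 the sign turned for Oas1a (-0.21), Oas1g (-0.0038) and Oas1e (0.0664), and for Oas1e also when the fit took in the mean of the cumulus markers (0.0133); the cause was not tested. Over all genes the count of calls, 10, became 6 with equal medians, 0 in limma without a variance trend, 188 in DESeq2 and 0 without null 3 and null 4, and ran from 2 (without null 3) to 16 (without null 1) when a pool was left out. With a replicate block it was 1. The deviations of same-numbered pools from their group means correlated at -0.16, 0.02 and -0.01. Such deviations are centred within small groups, so they cannot show whether these pools share a collection or a batch. Same-numbered pools also fall in the same range of library numbers. The log2 ratio of oocyte to immune forms was 11.96 in null and 12.2 in WT pools without Oas1g. With Oas1b and Oas1f added to the immune forms it was 7.53 in null and 7.499 in WT pools. Per unshared window it was 9.56 in null and 9.82 in WT pools. The last 2 of these were chosen after seeing the data, as was its difference without null 3 and null 4 (0.14). In the single WT pool of the higher range it was 10.5. Leaving out a pool moved its difference between -0.45 and -0.03. Depth was lowest for Oas1a and Oas1g, at 22 to 127 reads per pool.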
